A study of Mus musculus with 18 samples.

Results

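The 10 genes described here are Slc2a1, Hk2, Pfkfb3, Pgk1, Ldha, Car9, Egln3, Adm, Vegfa and Ndrg1, a set of glycolysis genes and genes known to be induced by low oxygen. They were taken by symbol from the probe sets that the array annotation pairs with exactly 1 gene. They are covered by 22 of 34945 such probe sets, and all 10 were among the 12877 genes tested. Colorectal RNA of outbred male ICR mice, aged 6 weeks at the start, was measured on 18 whole-genome Affymetrix mouse arrays, with 3 biological replicates in each of 6 groups. Values are log2(signal + 16), where the signal is the deposited linear intensity of a probe set, so a difference of 1 is a doubling for bright genes and is understated for dim ones.

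Every treated mouse was injected once, on day 1, with 10 mg/kg of the colon carcinogen azoxymethane (AOM). The drinking water then held dextran sulphate sodium (DSS), an agent that damages the lining of the colon, in 3 cycles. The first ran over days 8 to 14 with 2% DSS, the next over days 29 to 33 with 1.5% DSS, and the last over days 50 to 54, again with 1.5% DSS. The treated groups were inflamed mucosa on day 14, low grade dysplasia (LGD) on day 28, high grade dysplasia (HGD) on day 42, HGD with active inflammation on day 56 and carcinoma on day 140. Normal mucosa was collected on day 14 from mice given saline and plain distilled water. By these dates the day 14 and day 28 groups had passed the first DSS cycle, the day 42 group also the second, and the last 2 groups all 3. No group had AOM alone or DSS alone, and the later lesions were compared with normal mucosa of younger mice, so stage, age and treatment history cannot be told apart. Each array holds RNA of mixed tissue.

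Cells respond to low oxygen through hypoxia-inducible factors. When oxygen is plentiful, prolyl hydroxylases such as Egln3 mark the alpha subunits Hif1a and Epas1 for destruction. When it is scarce, the subunits persist, pair with Arnt and raise the transcription of genes for glucose uptake (the transporter Slc2a1), for glycolysis (Hk2, Pfkfb3, Pgk1 and Ldha), for acid export (the membrane carbonic anhydrase Car9) and for blood vessels (the secreted factors Vegfa and Adm). Ndrg1, a stress-responsive cytoplasmic protein, is induced in the same way. The healthy colonic epithelium borders a lumen almost free of oxygen, and several of these genes also respond to inflammatory signals in white blood cells. Oxygen itself was not measured in these samples.

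Hypoxia-inducible factors bind short elements whose core is ACGTG or GCGTG. The promoter table, from RefSeq on build GRCm38.p6, held 12 promoters of 9 of the 10 genes, and Ndrg1 was not in it. The 250 bases upstream of each start were searched for both cores on both strands. A core was present in 11 of the 12 promoters, against 38.6% of the 32851 promoters of all genes in the same window and 63.8% of the 9178 promoters with at least 60% G and C. The 12 promoters had 50.8 to 69.6% G and C, against a median of 52.4% over all promoters. At least 3 cores were present in 2 of the 12, against 6.58% of all promoters. Shown are the 3 genes whose RNA differed between inflamed and normal mucosa, and Ldha, which held the most cores of the 12 promoters and whose RNA was not called different. Each is given 5′ to 3′ on the strand of its gene, and ends at the base before the start. Capitals mark the cores, which read CACGT or CACGC where they lie on the opposite strand. The 6 bases CACGTG hold overlapping cores, 1 on each strand.
Adm, plus strand, chr7:110627407-110627656: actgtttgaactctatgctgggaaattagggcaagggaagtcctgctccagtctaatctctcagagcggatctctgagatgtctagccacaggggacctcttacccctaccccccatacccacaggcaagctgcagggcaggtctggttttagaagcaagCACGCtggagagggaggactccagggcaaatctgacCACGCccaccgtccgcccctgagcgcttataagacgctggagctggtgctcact
Pfkfb3, minus strand, chr2:11502091-11502340: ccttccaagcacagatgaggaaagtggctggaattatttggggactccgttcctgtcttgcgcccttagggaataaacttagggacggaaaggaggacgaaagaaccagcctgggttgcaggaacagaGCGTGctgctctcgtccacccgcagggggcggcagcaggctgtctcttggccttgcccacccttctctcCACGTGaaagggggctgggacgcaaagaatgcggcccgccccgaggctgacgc
Car9, plus strand, chr4:43506776-43507025: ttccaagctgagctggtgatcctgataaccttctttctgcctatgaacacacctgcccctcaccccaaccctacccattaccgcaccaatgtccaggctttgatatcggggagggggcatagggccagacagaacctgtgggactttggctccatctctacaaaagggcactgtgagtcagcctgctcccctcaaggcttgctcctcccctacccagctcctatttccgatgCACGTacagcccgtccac
Ldha, plus strand, chr7:46845554-46845803: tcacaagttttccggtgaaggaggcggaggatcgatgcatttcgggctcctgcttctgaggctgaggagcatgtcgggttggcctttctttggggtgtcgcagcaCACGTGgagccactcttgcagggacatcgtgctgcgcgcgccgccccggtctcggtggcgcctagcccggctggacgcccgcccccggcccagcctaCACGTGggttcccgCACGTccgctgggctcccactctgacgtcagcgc
Adm held 2 cores, both GCGTG on the opposite strand, Pfkfb3 held 3, Car9 held 1 and Ldha held 5. The other Pfkfb3 start (chr2:11553930-11554179) held 1, and so did the other Ldha start (chr7:46846832-46847081). The promoter without a core was a Vegfa start (chr17:46032378-46032627), and the other Vegfa start (chr17:46025164-46025413) held 2. A match of 5 letters is a description of the sequence and not evidence of binding.

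The arrays had similar medians, and the correlation of an array with the others of its group averaged 0.963 to 0.984 in normal mucosa, HGD of day 42 and carcinoma. It was 0.944 to 0.967 in inflamed mucosa, 0.934 to 0.954 in LGD and 0.900 to 0.946 in HGD of day 56. Replicate 2 of HGD at day 56 was the lowest of all 18 arrays for 5 of the 10 genes, namely Slc2a1, Ldha, Pgk1, Adm and Vegfa. Replicate 2 of LGD differed from the rest in the control probe sets for Gapdh, whose 3′ end exceeded the 5′ end by 1.63 on the log2 scale, a measure used as a check of RNA integrity. Results are also given without these 2 arrays and replicate 2 of inflamed mucosa, which had the least epithelial RNA, a choice made after the values were seen.

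**Figure D1:**
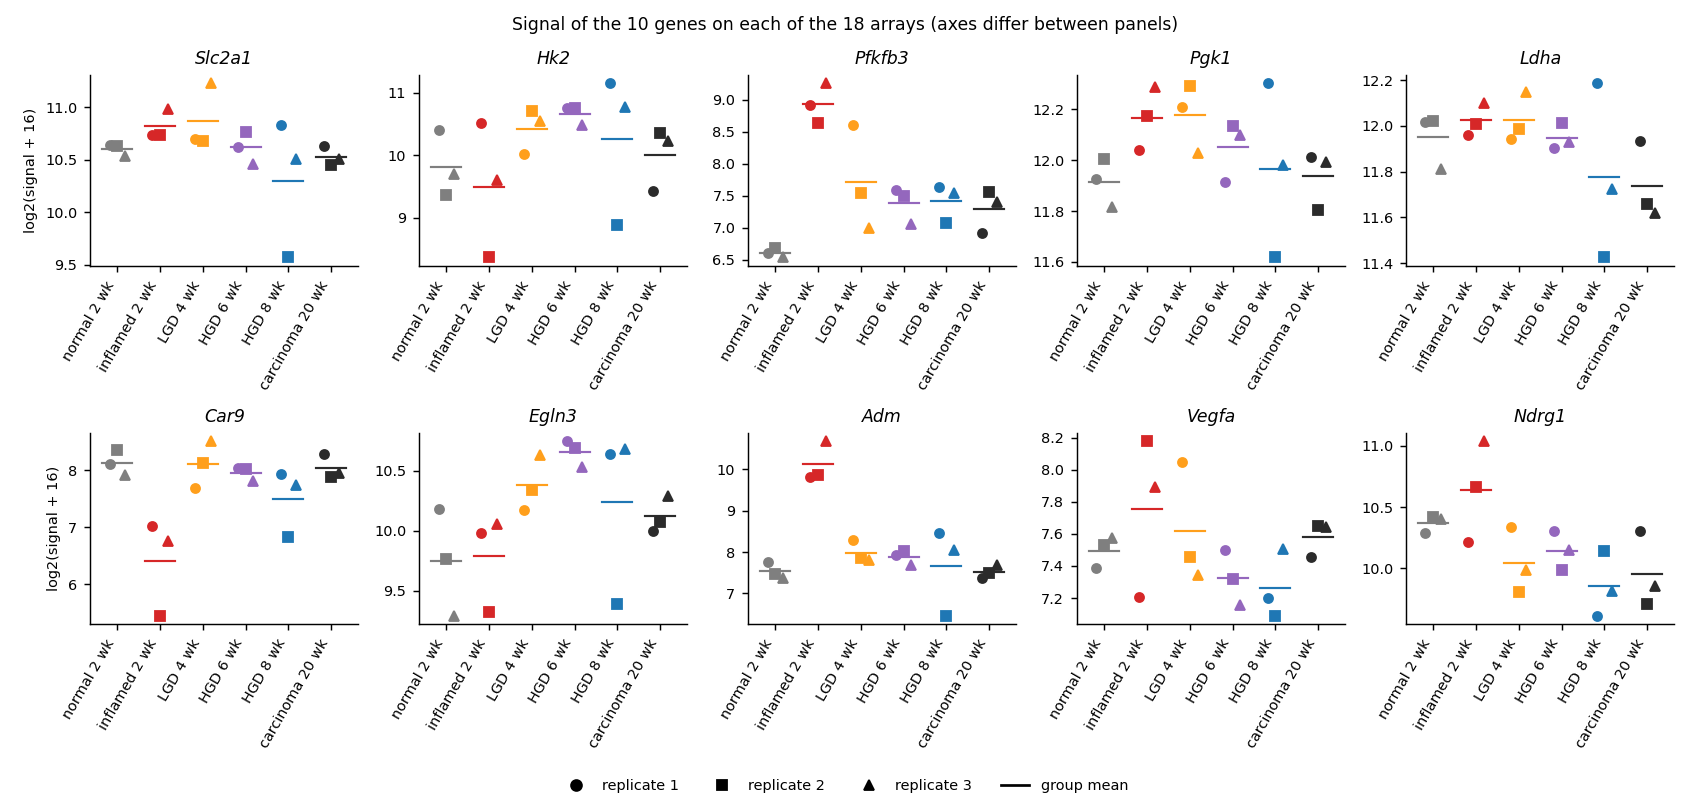
Signal of the 10 genes on each of the 18 arrays, as log2(signal + 16), with the 6 groups in order of time along the horizontal axis, a point for each array shaped by replicate number, and a line at each group mean. Adm and Pfkfb3 stand highest in inflamed mucosa and Car9 lowest, while Ldha spans 0.762 and Pgk1 0.685 over all arrays.

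The 10 genes did not move as a block. Over the 6 groups, limma's F test with Benjamini-Hochberg adjustment called 4 of them, Adm (adjusted p = 0.000446), Pfkfb3 (0.000909), Car9 (0.00622) and Ndrg1 (0.0473), against 45.3% of all genes tested. The other 6 had adjusted p from 0.122 for Egln3 to 0.449 for Hk2. The range over the 18 arrays was 4.21 for Adm, 3.06 for Car9, 2.79 for Hk2 and 2.72 for Pfkfb3, at or above the 89.9 percentile of all genes. It was 0.762 for Ldha and 0.685 for Pgk1, below the median of 0.996 over all genes.

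In inflamed mucosa at day 14, Adm and Pfkfb3 rose 5.96-fold and 5.01-fold, Car9 fell to 0.305 of its normal level, and the other 7 genes did not pass the test. The glucose transporter Slc2a1 and the glycolytic enzymes Hk2, Pgk1 and Ldha were among those 7. These are 3 calls of 10, whereas 46.9% of all genes passed in this comparison. The median difference was 0.23 over the 10 genes and 0.01 over all genes. In RNA of mixed tissue, fewer cells of a type and less RNA per cell cannot be told apart.

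Adm encodes adrenomedullin, a secreted peptide that widens blood vessels and protects their lining. Its log2 signal was 9.82, 9.86 and 10.67 in inflamed mucosa, against 7.76, 7.48 and 7.38 in normal mucosa. The groups did not overlap, and replicate 3 of inflamed mucosa was the highest of the 18 arrays. The difference was 2.58 (SE 0.378, 5.96-fold), with an adjusted p of 7.91e-05 (limma). A second probe set for Adm gave a difference of 2.73. The stage means ran 10.12 in inflamed mucosa, 7.99 in LGD, 7.88 in HGD at day 42, 7.66 in HGD at day 56 and 7.51 in carcinoma, against 7.54 in normal mucosa. Only the step between inflamed mucosa and LGD, 2.13, exceeded the SD of both neighbours in that order.

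Pfkfb3 makes and breaks down fructose-2,6-bisphosphate, the main activator of the glycolytic enzyme phosphofructokinase. Its log2 signal was 8.91, 8.63 and 9.26 in inflamed mucosa, against 6.61, 6.68 and 6.54 in normal mucosa. The difference was 2.33 (SE 0.317, 5.01-fold; adjusted p = 4.45e-05, limma). Of the 10 genes it was the only one whose 3 arrays lay above all 3 normal arrays at each of the 5 stages, which share the same normal arrays. Of all genes, 60.2% did not overlap with normal mucosa in inflamed mucosa and 30.3 to 35% at the later stages. These shares count either direction at a single stage, so they give no background for standing above at all 5 stages. Its means were 8.94 in inflamed mucosa, 7.71 in LGD, 7.39 in HGD at day 42, 7.41 in HGD at day 56 and 7.30 in carcinoma, against 6.61 in normal mucosa. The steps between neighbouring means of the 4 later stages were 0.03 to 0.30, each smaller than the larger SD of its pair. A second Pfkfb3 probe set lay below the table median on all 18 arrays (4.96 to 5.28) and was left out by the filter.

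Car9, the membrane carbonic anhydrase that handles acid outside the cell, went the other way. Its log2 signal was 7.03, 5.45 and 6.75 in inflamed mucosa, against 8.12, 8.35 and 7.91 in normal mucosa. All 3 inflamed arrays were below all 3 normal arrays, and replicate 2 of inflamed mucosa was the lowest of the 18. The difference was -1.71 (SE 0.355, a ratio of 0.305; adjusted p = 0.00115, limma). Car9 was back near its normal level in LGD (8.11, against 8.13 in normal mucosa) and in carcinoma (8.04). In HGD at day 56 its mean was 7.50, a difference of -0.63 from normal mucosa that did not pass (adjusted p = 0.249, limma).

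Of the 7 genes that did not pass, Slc2a1, Pgk1 and Ldha varied least within inflamed mucosa (SD 0.07 to 0.14). Slc2a1, the main glucose carrier of many cell types, had 10.74, 10.73 and 10.98 in inflamed mucosa, against 10.64, 10.63 and 10.54 in normal mucosa. Its groups did not overlap, but the difference of 0.21 had an interval of -0.30 to 0.72 (adjusted p = 0.494, limma). Pgk1, the enzyme of the first ATP-making step of glycolysis, likewise stood apart with a difference of 0.25 and an interval of -0.05 to 0.55. Its other probe sets gave differences of 0.41 and 0.24. Ldha, which turns pyruvate into lactate, differed by 0.07, with an interval of -0.24 to 0.39. These 95% intervals come from the same model, and for these 3 genes a log2 difference of 1 in either direction lay outside them.

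Hk2, the hexokinase that traps glucose in the cell, was the least even of the enzymes. It had 10.51, 8.36 and 9.60 in inflamed mucosa, against 10.40, 9.36 and 9.69 in normal mucosa, and the groups overlapped. The difference was -0.33, with a 95% interval of -1.52 to 0.86 (adjusted p = 0.666, limma). Egln3, the prolyl hydroxylase that is itself induced by low oxygen, differed by 0.04 (95% interval -0.62 to 0.69), and its second probe set by -0.42.

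Vegfa, the main growth factor for vessels, had 7.20, 8.18 and 7.89 in inflamed mucosa, against 7.38, 7.53 and 7.57 in normal mucosa. Replicate 1 of inflamed mucosa lay below the normal arrays and the other 2 above them. The difference was 0.26 (SE 0.220; adjusted p = 0.353, limma), and it rested on single arrays. It became 0.54 with an adjusted p of 0.0336 without replicate 1 of inflamed mucosa, and 0.05 with an adjusted p of 0.873 without replicate 2. The 2 probe sets for Vegfa disagreed in size, and the dimmer of them gave 0.64. Ndrg1 had 10.22, 10.66 and 11.04 in inflamed mucosa, against 10.29, 10.42 and 10.40 in normal mucosa, a difference of 0.27 (adjusted p = 0.319). Its 4 other probe sets gave 0.13 to 0.48.

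**Figure D2:**
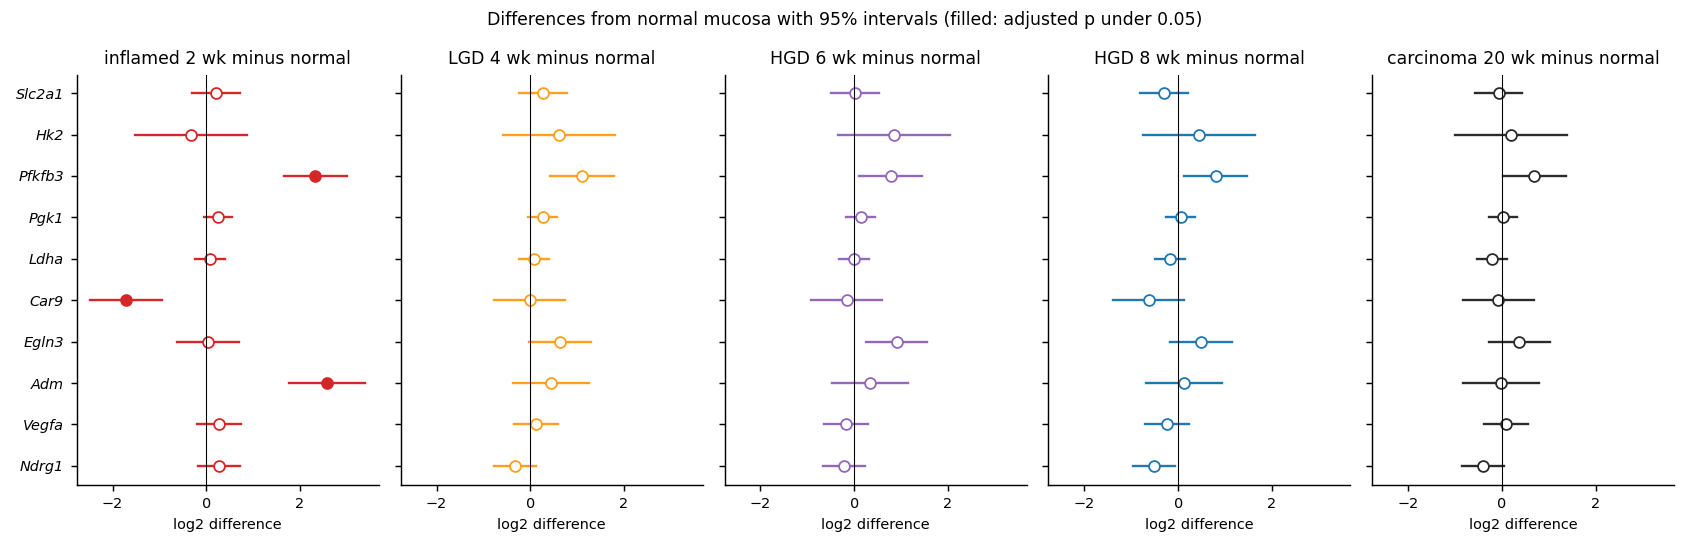
Log2 difference of each of the 10 genes from normal mucosa at the 5 stages, with 95% intervals from the limma model and filled points for an adjusted p under 0.05. The filled points are Adm, Pfkfb3 and Car9 in inflamed mucosa, and no point is filled at the later stages.

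RNA of cell type markers also differed between inflamed and normal mucosa. In inflamed mucosa 14 of 15 epithelial genes were lower, 10 of 11 neutrophil genes were higher and 1 lower, 13 of 14 macrophage and monocyte genes were higher and 9 of 10 endothelial genes were higher. The mean of the epithelial genes relative to normal mucosa was -1.34, -4.99 and -2.58 in the 3 inflamed arrays, and Epcam, which marks epithelium, had 11.66, 8.28 and 10.45 against 13.25, 13.27 and 13.08 in normal mucosa. Car9 and Hk2 took the same order over these 3 arrays, highest in replicate 1 and lowest in replicate 2. In the later stages the epithelial mean stayed between -0.43 and 0.22. There Car9 and Hk2 still varied, and replicate 2 of HGD at day 56, with an epithelial mean of -0.27, had 6.83 for Car9 and 8.88 for Hk2. The mean of 8 colonocyte genes was -4.50 on that array, against -0.64 to 0.49 in normal mucosa and -4.85 to -2.54 in inflamed mucosa. On LGD replicate 1, where the colonocyte mean was -3.76, Car9 had 7.69 and Hk2 had 10.01.

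The mean of 11 neutrophil genes relative to normal mucosa was 3.27, 4.54 and 4.86 in inflamed mucosa and 4.64, 1.89 and 0.61 in LGD. It was 1.24, 1.64 and 0.92 in HGD at day 42, 2.78, 0.70 and 1.89 in HGD at day 56, and 0.52, 2.06 and 1.26 in carcinoma, against -0.17 to 0.19 in normal mucosa. In LGD, HGD at day 56 and carcinoma Pfkfb3 put the 3 arrays in the same order as the neutrophil mean. In HGD at day 42, where Pfkfb3 was 7.59, 7.50 and 7.07, and in inflamed mucosa the order differed. Adm put the arrays in the order of the neutrophil mean in every stage but carcinoma. On LGD replicate 1, where the neutrophil mean was 4.64, Adm was 8.30 and Pfkfb3 8.60, against 9.82 to 10.67 for Adm and 8.63 to 9.26 for Pfkfb3 in inflamed mucosa. S100a9, a granulocyte calcium-binding protein, had 14.38 on that array, against 4.97 to 6.29 in normal mucosa. The part of neutrophils, epithelium, colonocytes or vessels in the differences of the 10 genes was not tested.

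**Figure D3:**
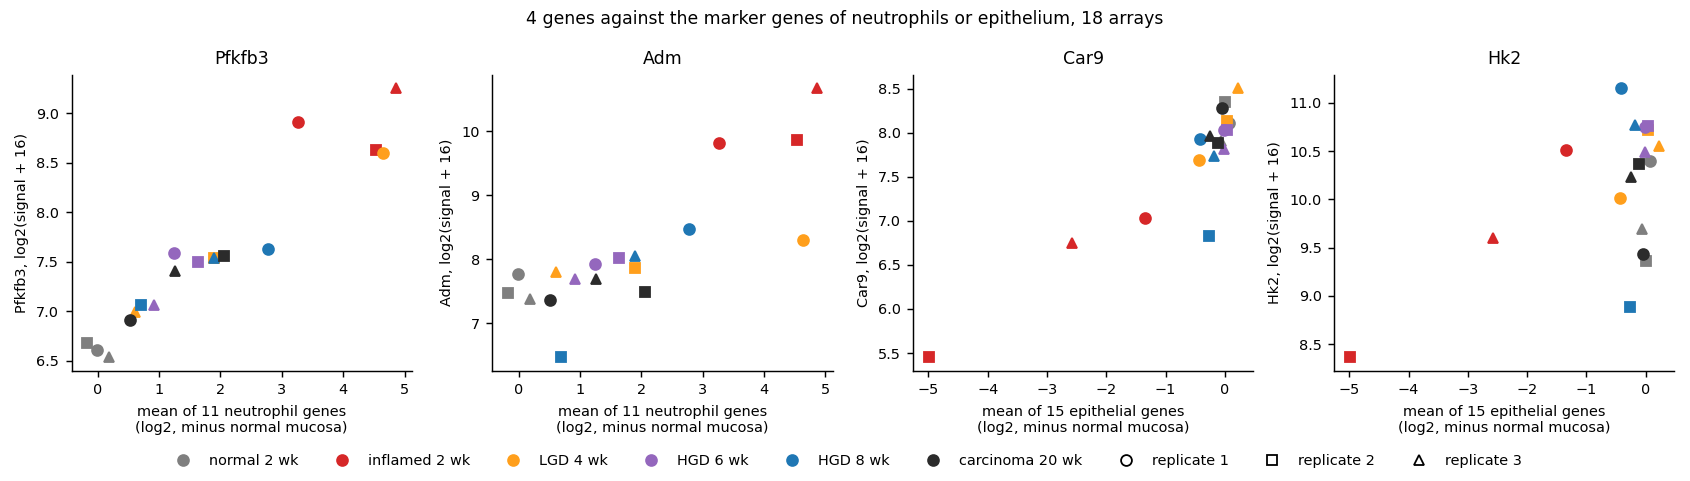
Log2(signal + 16) of Pfkfb3 and Adm against the mean of 11 neutrophil genes, and of Car9 and Hk2 against the mean of 15 epithelial genes (both as log2 relative to normal mucosa), with a point for each of the 18 arrays coloured by group and shaped by replicate number. LGD replicate 1 has a neutrophil mean of 4.64 and sits at 8.60 for Pfkfb3 and 8.30 for Adm, and inflamed replicate 2 sits lowest for Car9 and Hk2.

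In LGD at day 28 none of the 10 genes passed, where 5.69% of all genes did. At an unadjusted p under 0.05 there was 1, Pfkfb3, as against 3146 of the 12877 genes. Pfkfb3 had 8.60, 7.54 and 6.997 in LGD, all above the 6.54 to 6.68 of normal mucosa, with a difference of 1.10 (SE 0.317; adjusted p = 0.0546, limma). Without LGD replicate 3, its lowest array, the difference was 1.46 with an adjusted p of 0.00791, and without LGD replicate 1, its highest, it was 0.66 with an adjusted p of 0.196. Adm, Pgk1 and Slc2a1 also lay above normal mucosa on all 3 arrays, by 0.45, 0.26 and 0.27. These are 4 of the 10 genes, and over all genes 30.3% had groups that did not overlap.

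In HGD at day 42 again none of the 10 passed (1.14% of all genes did), and 2 had an unadjusted p under 0.05, as did 2527 of the 12877 genes. These were Egln3, by 0.91 (adjusted p = 0.132, limma), and Pfkfb3, by 0.78 (adjusted p = 0.196). Egln3 had 10.74, 10.69 and 10.54 in HGD, against 10.18, 9.77 and 9.30 in normal mucosa, so the groups did not overlap. Its second probe set gave 0.65. Hk2 was the third gene of the 10 to stand apart, where 35% of all genes did, with 10.75, 10.75 and 10.49 in HGD, against 10.40, 9.36 and 9.69 in normal mucosa, and its interval ran from -0.34 to 2.04. When only the arrays of these 2 groups were fitted, Pfkfb3 and Egln3 passed with adjusted p of 0.014 and 0.0267 (limma). In that fit 1633 of the 12877 genes passed.

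In HGD with active inflammation at day 56 none of the 10 passed, against 11.3% of all genes. Pfkfb3 (0.80, adjusted p = 0.104, limma) and Ndrg1 (-0.51, adjusted p = 0.118) had an unadjusted p under 0.05, as did 3888 of the 12877 genes. Ndrg1 had 9.62, 10.14 and 9.82 in these lesions, against 10.29, 10.42 and 10.40 in normal mucosa, and the groups did not overlap. The 3 arrays were spread widely for most of the other genes. Hk2 had 11.15, 8.88 and 10.77, Egln3 had 10.64, 9.39 and 10.68, and Slc2a1 had 10.83, 9.57 and 10.50, with replicate 2 lowest each time. Without replicate 2 Egln3 differed from normal mucosa by 0.91 with an adjusted p of 0.0514, and of 0.0444 when the other 2 arrays named above were left out too. Ldha differed by -0.38 with an adjusted p of 0.045 without replicate 1, and by 0.005 with an adjusted p of 0.985 without replicate 2.

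In carcinoma at day 140 none of the 10 passed, and 0.901% of all genes did. The 1 gene of the 10 with an unadjusted p under 0.05, against 2378 of all genes, was Pfkfb3, with 6.92, 7.56 and 7.41 in carcinoma, against 6.61, 6.68 and 6.54 in normal mucosa. Its difference was 0.69, with a 95% interval of 0.01 to 1.36 (adjusted p = 0.265, limma). Adm differed by -0.03, Car9 by -0.08, Slc2a1 by -0.08, Pgk1 by 0.02, Vegfa by 0.09, Ldha by -0.21 and Ndrg1 by -0.41. The interval was -0.28 to 0.32 for Pgk1 and -0.53 to 0.10 for Ldha, so a log2 difference of 1 either way lay outside both. For Adm (-0.84 to 0.78), Car9 (-0.84 to 0.68), Slc2a1 (-0.59 to 0.43) and Vegfa (-0.38 to 0.56) it lay outside too, whereas the intervals of Hk2, -1.001 to 1.38, and Egln3, -0.285 to 1.03, reached past it. Replicate 2 of carcinoma carried the highest squamous mean of any array (1.90 over 5 genes, with Krt5 at 7.77 against 6.14 to 6.45 in normal mucosa). This array was neither the lowest nor the highest of the 18 for any of the 10 genes, but was among the 2 lowest for 3 of them, Slc2a1, Pgk1 and Ndrg1.

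In LGD against inflamed mucosa Adm, Pfkfb3 and Ndrg1 fell and Car9 rose, 4 of the 10, whereas 36.3% of all genes passed. The differences were -2.13 for Adm (adjusted p = 0.000637, limma), -1.22 for Pfkfb3 (0.00766), -0.60 for Ndrg1 (0.0379) and 1.70 for Car9 (0.00202). For Ndrg1 the groups overlapped, with 10.34, 9.81 and 9.98 in LGD, against 10.22, 10.66 and 11.04 in inflamed mucosa. Its call was lost when any of 4 of the 6 arrays was left out, namely inflamed replicate 2 or 3 or LGD replicate 2 or 3, with an adjusted p up to 0.181, and its 4 other probe sets gave differences of -1.18 to -0.49. Fitting only the arrays of these 2 groups left Pfkfb3 at an adjusted p of 0.0748 and Ndrg1 at 0.121. Ldha and Pgk1 differed by 0.002 and 0.009 between these stages, with 95% intervals of -0.32 to 0.32 and -0.29 to 0.31.

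Carcinoma against inflamed mucosa gave the same 4 calls in the same directions, with 42.4% of all genes called. Both comparisons use the same 3 inflamed arrays. The differences were -2.61 for Adm (adjusted p = 0.000101, limma), -1.64 for Pfkfb3 (0.000862), -0.68 for Ndrg1 (0.0172) and 1.63 for Car9 (0.00205). Adm, Pfkfb3, Ldha, Pgk1 and Slc2a1 were lower on all 3 carcinoma arrays than on any inflamed array, and the differences of the last 3 were -0.29, -0.23 and -0.29 without passing the test. With Car9, higher on all 3, that makes 6 of the 10 genes without overlap, against 56.9% of all genes. The call for Ndrg1 was lost without inflamed replicate 3 or carcinoma replicate 2 or 3, with an adjusted p up to 0.095, and was 0.0668 when only these 2 groups were fitted. Between the HGD stages of day 56 and day 42 limma called none of the 10 genes and 0% of all genes, and 423 genes but none of the 10 had an unadjusted p under 0.05.

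Around the 10 genes, 109 further genes were listed in 8 groups by pathway, and 89 of them were tested. In inflamed mucosa 31 rose and 16 fell against normal mucosa, which is 52.8% against the 46.9% of all genes. Over all genes 22.6% rose and 24.3% fell there, which is the background for the counts of inflamed against normal mucosa that follow. For LGD against inflamed mucosa the background is 19.3% of all genes higher and 17% lower. Against normal mucosa 2 of the 89 rose and 2 fell in LGD, where 2.61% and 3.08% of all genes did. In HGD at day 56 1 rose and 5 fell, where 4.84% and 6.42% of all genes did. In HGD at day 42 and carcinoma limma called none, with 14 and 13 of the 89 at an unadjusted p under 0.05. Of 9 regulators of hypoxia-inducible factors 4 rose and 1 fell in inflamed mucosa, with a median of 0.37. Hif1a had 11.87, 11.77 and 11.92 in inflamed mucosa, against 10.89, 10.65 and 10.90 in normal mucosa, a rise of 1.04 (adjusted p = 0.000909, limma). Epas1 rose by 1.13 (adjusted p = 0.00388), and Hif1an, an asparagine hydroxylase that restrains both, fell by 0.69 (adjusted p = 0.000842). Hif1a protein is mainly controlled by its stability, which arrays do not measure. Hif1a was still higher in LGD, by 0.79 (adjusted p = 0.0422), and differed by 0.51 in carcinoma (adjusted p = 0.219), where Epas1 differed by -0.29 (adjusted p = 0.622).

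Of 20 other hypoxia-induced genes 7 rose and 2 fell in inflamed mucosa, with a median of 0.23. The largest were Lox, an enzyme that cross-links collagen, by 4.48 (adjusted p = 1.08e-05, limma), Angptl4, an inhibitor of lipoprotein lipase, by 3.27 (4.56e-05), and Bnip3, a mitophagy receptor, by 1.76 (0.00025). Lox had 10.56, 11.71 and 11.40 in inflamed mucosa, against 6.41, 7.30 and 6.53 in normal mucosa. Lox is also made by fibroblasts, whose markers rose in 8 of 10 cases, with a median difference of 1.09 and a largest of 2.165. The part of fibroblasts in the rise of Lox was not tested. In LGD against inflamed mucosa 1 of the 20 rose and 7 fell, with differences of -2.56 for Lox (adjusted p = 0.00132) and -2.40 for Angptl4 (0.000886). Lox was the only 1 of these 3 still called in LGD against normal mucosa, by 1.92 (adjusted p = 0.0411).

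Of 14 other glycolysis genes 5 rose and 2 fell in inflamed mucosa, with a median of 0.23. Isoforms of 1 step went opposite ways. Of the enolases, Eno2, known from neurons, rose by 1.88 (adjusted p = 6.91e-06, limma) and Eno3, known from muscle, fell by 4.14 (5.21e-05). Of the pyruvate kinases, Pkm rose by 0.82 (0.00119) and Pklr, known from liver and red cells, fell by 1.45 (6.77e-06). Eno3 had 8.09, 6.87 and 7.09 in inflamed mucosa, against 11.57, 11.75 and 11.17 in normal mucosa, so the groups were far apart. Gapdh had no single-gene probe set among those tested, and its 3′ control probe set read 13.09, 13.42 and 13.43 in inflamed mucosa, against 12.79, 12.80 and 12.67 in normal mucosa. In carcinoma Pkm differed from normal mucosa by 0.13 (adjusted p = 0.73).

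Transport and the onward use of pyruvate were split. Of 8 other glucose and lactate transporters 2 rose and 1 fell in inflamed mucosa. Slc2a3, a high-affinity glucose carrier, had 9.64, 10.65 and 10.38 in inflamed mucosa, against 7.94, 8.00 and 7.99 in normal mucosa, a rise of 2.25 (adjusted p = 0.00223, limma). Slc2a6 rose by 0.79 (0.00691), and the sodium-coupled carrier Slc5a1, found at the apical face of intestinal epithelium, fell by 3.97 (2.63e-05). Of 11 genes for pyruvate entry into mitochondria 1 rose and 5 fell, with a median of -0.47. The largest were Pdp2, a phosphatase that activates pyruvate dehydrogenase, by -1.50 (7.22e-05), Pdk1, a kinase that inhibits it and is itself known as hypoxia-induced, by -1.01 (0.00408), and Dlat, a subunit of the complex, by -0.71 (0.000154).

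The vessel group was the most uniform. Of 14 ligands and receptors of the VEGF and adrenomedullin families 11 rose and 1 fell in inflamed mucosa, with a median of 1.15, and in LGD against inflamed mucosa 1 rose and 11 fell. Flt1, a VEGF receptor, rose by 1.52 (adjusted p = 1.15e-05, limma) in inflamed mucosa. Ramp3 and Ramp1 are partners of the receptor Calcrl, and Ramp3 serves adrenomedullin whereas Ramp1 serves the related peptide CGRP. Ramp3 rose by 1.85 (0.00197) and Ramp1 fell by 2.49 (0.000219). Endothelial markers, with Pecam1 at 7.67, 8.12 and 7.81 in inflamed mucosa against 6.36, 6.29 and 6.26 in normal mucosa, moved with this list, and their part in it was not tested.

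Of 10 other carbonic anhydrases none rose and 3 fell in inflamed mucosa, against 24.3% of all genes lower. The differences were -3.63 for Car1 (adjusted p = 0.0152, limma), -3.08 for Car2 (0.00018) and -0.28 for Car14 (0.0406), and Car1 and Car2 are abundant in mature colonocytes. Car2 had 11.35, 8.79 and 9.16 in inflamed mucosa, against 12.85, 12.95 and 12.77 in normal mucosa. The colonocyte list had 6 of 8 genes lower in the same comparison and the goblet cell list 9 of 9. Car1 and Car4 belong to both the carbonic anhydrase and the colonocyte list, so these counts are not independent. The part of colonocytes in the falls of the carbonic anhydrases was not tested. Of 5 other Ndrg and Pfkfb genes 1 rose and 2 fell. Pfkfb2 fell by 0.77 (0.000239) while Pfkfb3 rose, Ndrg3 fell by 0.64 (0.000645), and Ndrg4 rose by 1.37 (0.00334).

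**Figure D4:**
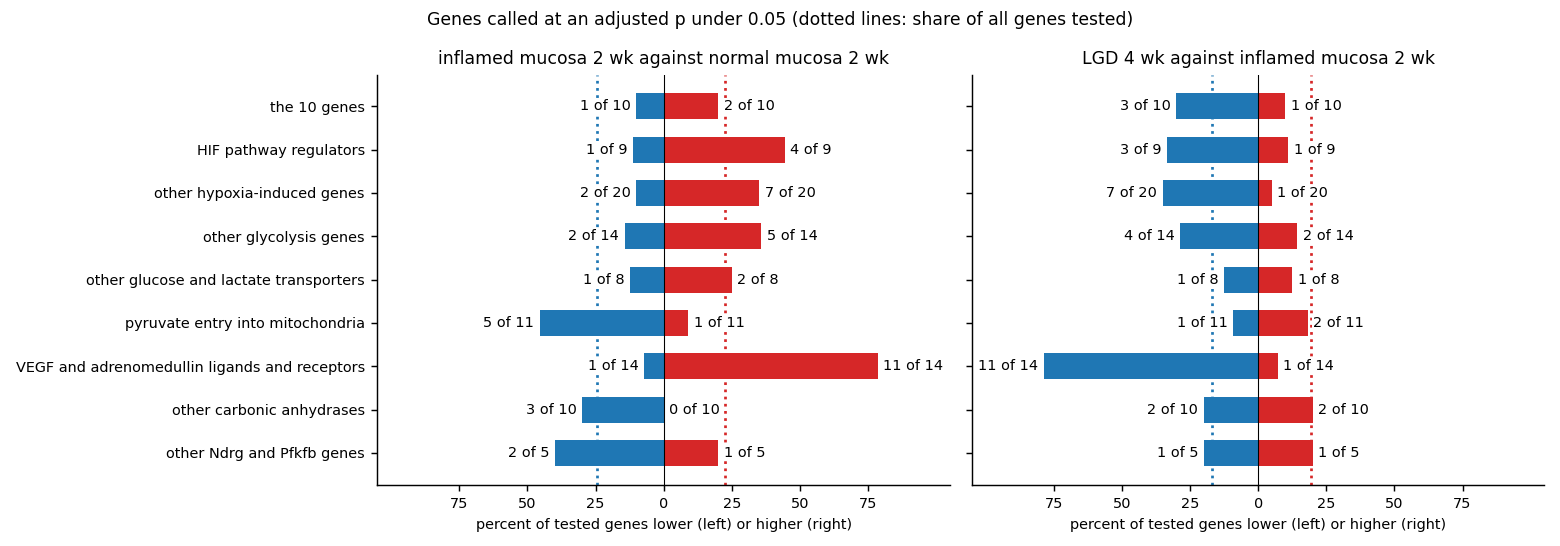
Percent of the tested genes called higher (right) or lower (left) at an adjusted p under 0.05 among the 10 genes and in the 8 pathway groups, for inflamed mucosa against normal mucosa and for LGD against inflamed mucosa, which share the inflamed arrays. Dotted lines give the share of all genes, and the group of VEGF and adrenomedullin ligands and receptors has 11 of 14 higher at day 14 and 11 of 14 lower in LGD.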

How the data were processed

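RNA of 18 colorectal samples was measured, 1 array each, and groups and replicate numbers were taken from the sample titles. The authors deposited intensity values, 1 linear signal per probe set. MAS5 appears in the submitters' processing notes. Its settings, scaling and background correction stay unknown. Such steps can move dim values most. Signals ran from 3.39 to 24945.1 with a table median of 56.57, and array medians were close, so no scaling was added.

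Of 45101 probe sets 64 were controls. GEO's platform annotation named 1 gene for 34945, several for 932 and none for 9160. A single-gene probe set was kept if at least 3 of 18 arrays exceeded the table median (21653 kept, 21 of the 22 for the 10 genes). The probe set with the highest mean stood for its gene. For Adm, Pgk1 and Ndrg1 that probe set carries the manufacturer's suffix for probes that may also bind related transcripts.

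Values of log2(signal + 16) from all 18 arrays entered 1 fit in limma 3.58.1 (R 4.3.3; lmFit, eBayes with intensity trend, 12 residual degrees of freedom, median prior 2.51). P-values are 2-sided and Benjamini-Hochberg adjusted over 12877 genes within each of 8 comparisons, with a threshold of 0.05. SD and n refer to the 3 arrays of a group. The script was tested on simulated data. The titles call replicates biological. The number of arrays limits precision.

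The 10 genes, 8 pathway lists and 13 cell marker lists were chosen with earlier results of these data known. All 10 genes are named throughout. From each pathway list up to 3 genes that passed, those of largest change, in inflamed or carcinoma against normal mucosa are named, besides Hif1a, Epas1, Gapdh and Pkm. Pecam1, Epcam, S100a9 and Krt5 stand for cell types. Listed genes without a passing single-gene probe set were not analysed here. Of the marker lists not described with the results, inflamed against normal mucosa gave 8 of 10 fibroblast genes higher, 0 of 10 for smooth muscle, 0 of 5 for squamous epithelium, 1 of 1 erythroid and 1 of 3 adipocyte genes higher, 1 of 3 acinar genes lower, and 4 of 9 proliferation genes lower. Alternatives were the pseudocount, filter, quantile normalization, robust moderation, probe set averaging, fitting only the groups compared, the replicate number as a block, and leaving out each array. Promoter sequences are RefSeq's on GRCm38.p6, and the array files name no build.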

Additional observations from a re-analysis of the deposited data

How the results depend on the processing

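Of 1200 recomputed values of single genes among the 10, 1181 kept their side of the threshold, 12 lost a call, 7 gained one and 0 reversed. Adm, Pfkfb3 and Car9 in inflamed against normal mucosa passed in every setting and without any 1 array, with adjusted p (limma) of at most 0.000661, 0.000406 and 0.00649 when an array was left out. Pseudocounts of 1 and 64, no filter, quantile normalization, robust moderation and averaging of probe sets changed no call of the 10 genes in the 8 comparisons. Genes differing among the 6 groups numbered 3 to 5 of the 10 when 1 array was left out, and 3 with no filter, with averaged probe sets or with the replicate block.

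Correlations between the deviations of same-numbered arrays from their group means ran from -0.462 to 0.167. With 3 arrays in a group this check cannot settle whether the numbers pair the samples. The replicate block reduced the genes called to 31 in HGD at day 42 (147 without it) and to 44 in carcinoma (116 without it), each against normal mucosa, and left Ndrg1 at an adjusted p of 0.0555 in LGD against inflamed mucosa. Fitting only the 2 groups compared gave 50 genes in LGD (733 with all arrays), 1633 in HGD at day 42 (147), 761 in HGD at day 56 (1450) and 529 in carcinoma (116), each against normal mucosa, and 1 gene between the HGD stages (0). Of the 10 genes it called 2 at day 42 and 1 at day 56 (Pfkfb3), and 2 rather than 4 in LGD against inflamed mucosa. Leaving out the 3 arrays named above, chosen after seeing the data, gave 156 genes in LGD, 422 in HGD at day 56 with 1 of the 10, and 3008 in LGD against inflamed mucosa. These fits use fewer arrays, and the cause of the other changes was not tested.

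Leaving out 1 array at a time gave 70 to 1787 genes in LGD (fewest without normal replicate 2, most without LGD replicate 3), 6 to 127 in HGD at day 42 (fewest without HGD replicate 2), 333 to 2202 in HGD at day 56 (fewest without normal replicate 2, most without HGD replicate 1) and 8 to 287 in carcinoma (fewest without normal replicate 1, most without carcinoma replicate 1). Of the 10 genes it called 0 to 1 in LGD and 0 to 1 in HGD at day 56, and 3 to 4 in inflamed mucosa. Arrays have no read depth, and signal over background was not used here.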
